A study of Mus musculus with 6 samples.

Results

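The superoxide dismutases, glutathione peroxidases and peroxiredoxins were described in mouse liver RNA through 10 genes, chosen by symbol: Sod1, Sod2, Sod3, Gpx1, Gpx3, Gpx4, Prdx2, Prdx3, Prdx5 and Prdx6. All 10 were found among the 16123 genes of the deposited expression table, and all 10 were among the 10266 genes tested. Exercise mice were healthy adults that ran 22 km each over 6 weeks on a treadmill, and their livers were taken 24 h after the last training. Sedentary mice had no treadmill training. There were 3 libraries a group, and the design text speaks of 3 mice in each. No source used here gives the strain, the sex or the exact age. All livers were perfused with saline before RNA was extracted from the whole tissue.

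Superoxide and hydrogen peroxide arise as by-products of respiration and of oxidases, and the liver makes them in mitochondria, peroxisomes and the endoplasmic reticulum. Superoxide dismutases convert superoxide to hydrogen peroxide. Glutathione peroxidases then reduce peroxides with glutathione, and peroxiredoxins do so with a reactive cysteine that is mostly restored by thioredoxin. Members of each family differ in the place where they act, so that cytosol, mitochondria and the space outside cells each have their own set.

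The libraries held 17941303 to 18371949 counts. The share of counts in the top 20 genes was 29.0% to 29.3% in sedentary and 26.8% to 27.2% in exercise libraries. All 9 hepatocyte markers were detected, at a summed 105600 to 107100 TPM (transcript levels by length, set to the same sum in each library) in sedentary and 107800 to 108400 in exercise libraries. By the edgeR test described below, 3 of the 9 were higher in exercise and 5 lower, where 19.1% of all tested genes were higher and 19.0% lower. On the TPM scale the median gene was higher in exercise. Summed markers of some other cells also differed between the groups. Kupffer cell markers stood at 260 to 262 TPM in sedentary and 224 to 229 in exercise libraries. Pancreatic acinar markers stood at 21.7 to 23.2 and 10.5 to 11.1, with 8 of 10 at 0 in every exercise library. Only 2 of the 10 acinar markers averaged 1 FPKM or more over all libraries and were tested, so the others were scarce. In whole tissue, fewer cells of a type and less RNA per cell cannot be told apart.

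Of the 10 genes, Sod1 and Gpx4 were higher in exercise livers, Prdx3 was lower, and 7 did not pass the test. The changes were small: Sod1 was 8.5% higher, Gpx4 was 7.86% higher, and Prdx3 fell by 11.2%. Read counts were compared with edgeR's quasi-likelihood test after TMM scaling, which sets library sizes so that most genes have a fold change near 1. P-values were adjusted over all 10266 genes, with a threshold of 0.05. Over all tested genes 38.1% passed, 19.1% higher and 19.0% lower, so 3 of 10 members is a share near that background. The median absolute log2 fold change was 0.07 over the 10 genes and 0.12 over all tested genes. Libraries of 1 group lay close together (common biological coefficient of variation 1.84%), and the p-values measure only the spread between these libraries, which may be technical.

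The direction of small changes depended on the scaling. With library totals alone, the median log2 fold change of all tested genes was 0.08, and 7 members passed as higher and 1 as lower, where 46.2% of tested genes passed, 34.5% higher and 11.7% lower. With limma on log2(TPM + 1) the median of all genes was 0.10, and 6 members were higher and none lower, where 43.1% of tested genes passed, 34.5% higher and 8.58% lower. The members added with library totals were Sod2, Sod3, Gpx1, Prdx2 and Prdx6. Another library scaling moves the log2 fold change of every gene by about the same amount. Against a 1.2-fold change, the test called none of the 10 genes.

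**Figure D1:**
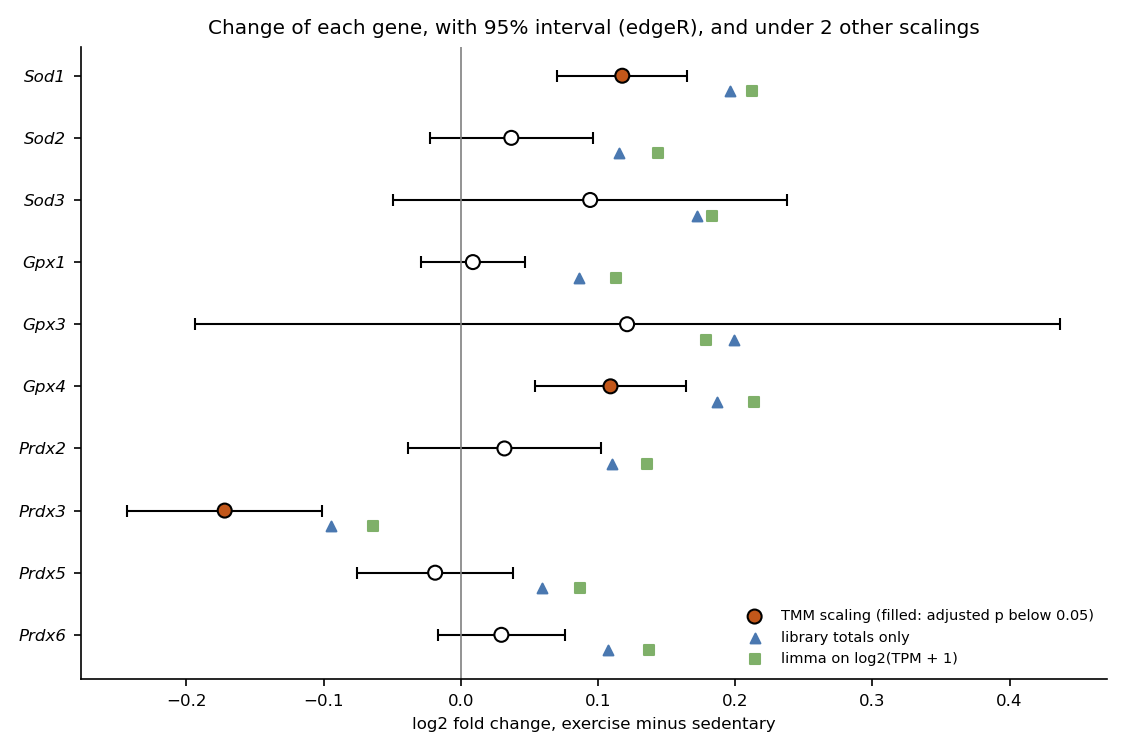
Log2 fold change of each gene in exercise against sedentary livers. Circles and bars give the edgeR estimate with TMM scaling and its 95% interval, filled where the adjusted p was below 0.05, triangles the estimate with library totals alone and squares limma on log2(TPM + 1). Sod1 and Gpx4 lie to the right of 0 and Prdx3 to the left under all 3, while Prdx5 changes side.

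Expression levels spanned a 784-fold range per transcript length. By the deposited FPKM (a fragment count divided by transcript length and by library size), Gpx1 was the highest of the 10, followed by Sod1, Gpx4, Prdx6, Prdx5, Prdx3, Prdx2, Sod2, Sod3 and Gpx3. Among tested genes Gpx1 ranked 45 and Sod1 58 by mean FPKM, while Sod3 ranked 4260 and Gpx3 8098. The ranges of neighbours in that order did not overlap over the 6 libraries, except for Prdx3 and Prdx2. Prdx3 was above Prdx2 in 3 of 3 sedentary libraries and in 1 of 3 exercise libraries. Levels of short transcripts rest on a short effective length. For Sod1 the FPKM implied 321 to 334 bases, where its main GENCODE transcript has 641, and for Gpx4 486 to 495 where the transcript has 959. Per read, Gpx1 was 3.26 ± 0.0836 times Sod1 in sedentary and 3.03 ± 0.0820 times in exercise libraries (SD, n = 3).

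**Figure D2:**
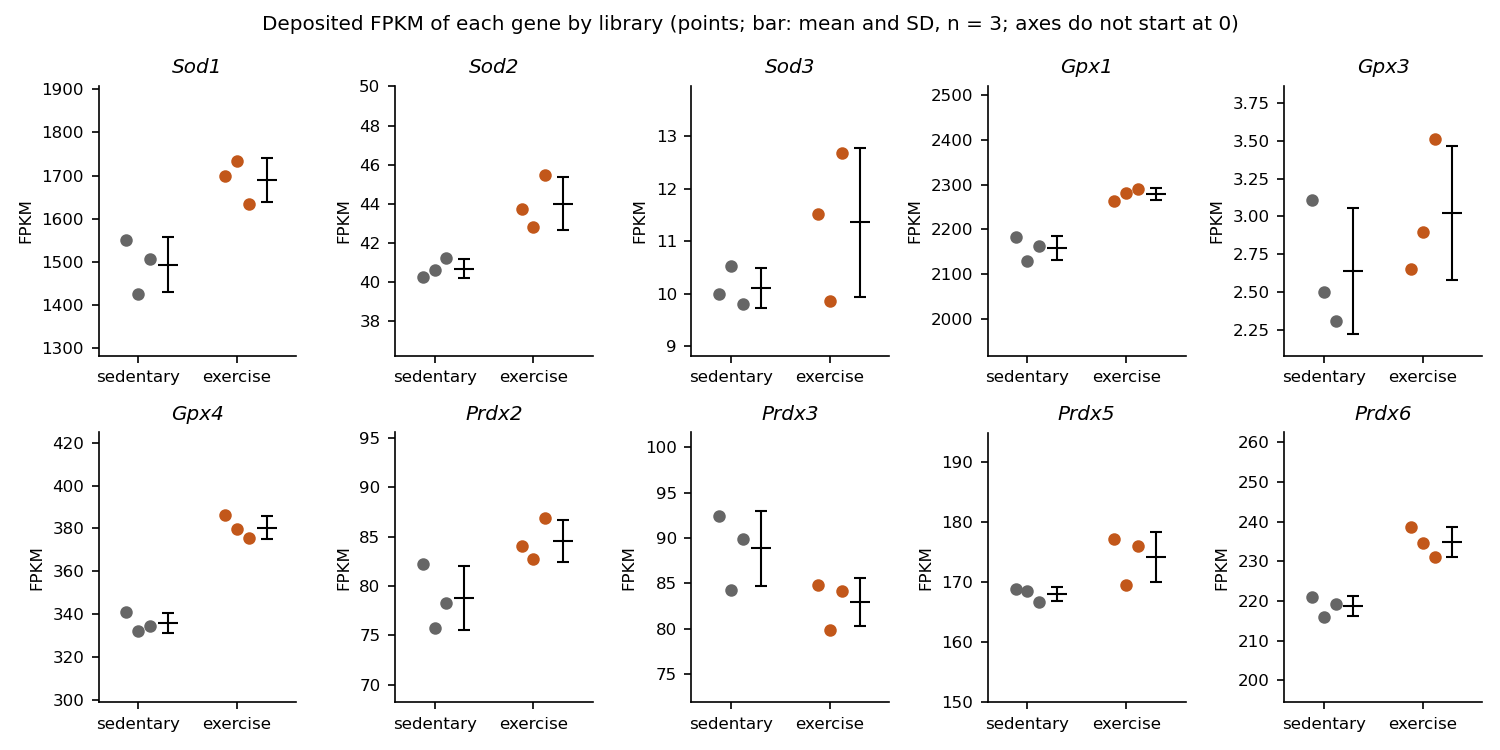
Deposited FPKM of the 10 genes in the 3 sedentary and 3 exercise libraries, with the mean and SD beside the points. On this scale 7 genes have every exercise library above every sedentary library, and Sod3, Gpx3 and Prdx3 overlap.

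By FPKM, groups did not overlap for 7 members, all higher in exercise, where 51.0% of tested genes did not overlap, 36.6% higher and 14.3% lower. On counts divided by TMM-scaled library size, 3 members were higher without overlap (Sod1, Gpx4 and Prdx6) and 1 was lower (Prdx3), where 47.0% of tested genes did not overlap, 23.3% higher and 23.7% lower. Summed over the 10 genes, the level was 5762 ± 109 TPM in sedentary and 6399 ± 36.4 TPM in exercise libraries (SD, n = 3), or 0.565% to 0.643% of all transcripts. The sum of the superoxide dismutases was 1936 ± 72.5 and 2240 ± 57.2 TPM, nearly all of it Sod1. Glutathione peroxidases summed to 3131 ± 27.1 and 3419 ± 17.99 TPM, and peroxiredoxins to 695 ± 9.82 and 740 ± 12.3 TPM. By place, the cytosolic genes Sod1, Gpx1, Prdx2 and Prdx6 summed to 4952 ± 102 and 5505 ± 46.9 TPM without overlap of the groups. Most of that sum was Gpx1, at a mean of 2706 and 2926 TPM, and Sod1, at 1873 and 2168 TPM. Of these genes only Sod1 passed the edgeR test with TMM scaling. The genes grouped as mitochondrial, Sod2, Prdx3 and Prdx5, summed to 373 ± 3.62 and 387 ± 10.6 TPM, with overlap. Prdx5, which is also found in peroxisomes and cytosol, was the largest part, at a mean of 210.6 and 223.7 TPM. The secreted Sod3 and Gpx3 summed to 16.0 ± 0.696 and 18.5 ± 2.25 TPM, also with overlap. These sums are a description on the TPM scale, on which the median gene was higher in exercise.

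Sod1 encodes the copper and zinc superoxide dismutase of the cytosol. The gene (gene ID 20655) lies on chromosome 16, 90220762 to 90226333, plus strand, in GRCm38.p6, and its main transcript has 5 exons. It was at 1551, 1424 and 1506 FPKM in sedentary and 1699, 1734 and 1633 FPKM in exercise libraries. Every exercise library was above every sedentary library. The corresponding reads were 9207, 8506 and 8854 in sedentary and 10023, 10140 and 9816 in exercise libraries. By TMM-scaled counts Sod1 rose 1.085-fold (log2 fold change 0.12, SE 0.02, edgeR adjusted p = 6.83e-05). It stayed higher, with adjusted p below the threshold, with each library left out in turn. Its libraries spread more than counting noise within groups, with a chi-square of 27.1 over 4 degrees of freedom, the largest value among the 10 genes. Next were Sod3 (12.3), Gpx1 (11.7) and Prdx3 (11.1).

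Promoters of Sod1, Gpx4 and Prdx3 are shown because these were the 3 genes that passed the test. Each covers the bases around a RefSeq start site (GRCm38.p6), written 5′ to 3′ on the strand of the gene, and 8 of the 10 genes had an entry. Sod1 is from chr16:90220512-90220811 on the plus strand, Gpx4 from chr10:80053315-80053614 on the plus strand at the second of 4 start sites, and Prdx3 from chr19:60874489-60874788 on the minus strand. Capitals mark matches, on either strand and with overlapping matches counted apart, to the core of the antioxidant response element bound by NRF2 (TGACNNNGC), the GC box bound by Sp1 (GGGCGG), the TATA box (TATAAA) and the E-box (CACGTG).
Sod1: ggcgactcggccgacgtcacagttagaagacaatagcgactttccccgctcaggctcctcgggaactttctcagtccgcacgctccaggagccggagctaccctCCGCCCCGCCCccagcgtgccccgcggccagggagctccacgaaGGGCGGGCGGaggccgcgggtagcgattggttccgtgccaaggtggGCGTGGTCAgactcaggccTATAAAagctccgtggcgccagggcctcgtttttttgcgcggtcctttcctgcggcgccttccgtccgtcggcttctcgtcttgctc
Gpx4: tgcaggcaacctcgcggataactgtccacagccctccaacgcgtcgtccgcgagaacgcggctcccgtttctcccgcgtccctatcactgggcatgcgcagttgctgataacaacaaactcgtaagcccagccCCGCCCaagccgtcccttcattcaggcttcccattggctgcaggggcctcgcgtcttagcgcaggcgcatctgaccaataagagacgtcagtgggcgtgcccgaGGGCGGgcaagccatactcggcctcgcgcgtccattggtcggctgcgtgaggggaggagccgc
Prdx3: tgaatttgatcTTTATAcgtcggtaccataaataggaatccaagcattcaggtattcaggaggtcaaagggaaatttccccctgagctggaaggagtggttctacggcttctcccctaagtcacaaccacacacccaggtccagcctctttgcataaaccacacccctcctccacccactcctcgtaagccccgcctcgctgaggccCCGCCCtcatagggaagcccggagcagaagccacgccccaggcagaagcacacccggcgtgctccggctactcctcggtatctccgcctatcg

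A GC box match was present in at least 1 promoter of all 8 members with an entry, and in 64.6% of promoters of tested genes and 35.9% of all promoters. The shares over genes count only the first listed promoter of each gene, while members were searched at every start site. At the first of its 4 start sites Gpx4 had no GC box match. The antioxidant response element core matched in 1 of 8 members, Sod1, 56 bases before the start, and in 1239 of 8252 promoters of tested genes and 3369 of all 27025. TATA box letters occurred in Sod1 and Prdx3, in 7.32% of promoters of tested genes and 14.2% of all, and E-box letters in none of the 8, in 10.6% and 7.24%. In Sod1 the TATA box letters begin 37 bases before the start, and in Prdx3 they lie on the opposite strand from 239 bases before it. Gpx4 and Prdx3, which moved in opposite directions, both had GC box letters. A match of letters shows neither binding nor a cause.

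Sod2 encodes the manganese superoxide dismutase of the mitochondrial matrix, a gene known to be induced by inflammatory cytokines. Its locus (gene ID 20656) is chromosome 17, 13007839 to 13018119, plus strand. It was at 40.3, 40.6 and 41.2 FPKM in sedentary and 43.7, 42.8 and 45.5 FPKM in exercise libraries. The groups did not overlap by FPKM, but the TMM-scaled counts did, and Sod2 did not pass the test (log2 fold change 0.04, SE 0.03, edgeR adjusted p = 0.342). The 95% interval of its fold change ran from 0.985 to 1.07. The ratio of Sod1 to Sod2 reads was 3.39 ± 0.138 in sedentary and 3.59 ± 0.177 in exercise libraries (SD, n = 3), with overlap and an exact permutation p of 0.2, two-sided.

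Sod3 encodes the extracellular superoxide dismutase, which is secreted and binds to matrix, and in many tissues is made by vessel walls. Sod3 (gene ID 20657; chromosome 5, 52363804 to 52369738, plus strand) had 318, 332 and 310 reads in sedentary and 361, 307 and 398 in exercise libraries. Exercise replicate 2 lay below all sedentary libraries and the other two above them. Sod3 did not pass the test (log2 fold change 0.09, SE 0.07, edgeR adjusted p = 0.312), with a fold interval of 0.966 to 1.18. Without exercise replicate 2 the log2 fold change was 0.19 and it passed (edgeR adjusted p = 0.0425). Without exercise replicate 3 it was 0.00477. Beside it, summed smooth muscle markers were at 21.3 to 23.0 TPM in sedentary and 25.3 to 27.0 in exercise libraries, with 1 of 3 tested members higher and none lower. Most of that sum was Mylk, at 17.05 to 17.91 TPM in sedentary and 17.92 to 19.09 in exercise libraries. Acta2 was at 0.55 to 0.97 and 2.23 to 3.29 TPM, and Tagln overlapped between the groups. Stellate cell markers were at 119 to 123 and 153 TPM (4 of 7 higher, 1 lower), and endothelial markers at 100 to 101 and 111 to 123 TPM (4 of 8 higher, none lower). Over all tested genes 19.1% were higher and 19.0% lower. These marker sums are on the TPM scale, on which the median gene was higher in exercise. The part of smooth muscle, stellate and endothelial cells in the Sod3 level was not tested.

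The 3 glutathione peroxidases measured here are selenoproteins, in which the codon TGA is read as selenocysteine, the catalytic residue, and not as a stop. That codon is shown for each, with 15 coding bases on either side, because it is what the genes share and what ties them to selenium supply. Capitals mark the codon. Sequences are from GENCODE transcripts on GRCm38, and all 3 codons are annotated as selenocysteine.
Gpx1, exon 1, codon 47 of 201, chr9:108339451-108339453, plus strand: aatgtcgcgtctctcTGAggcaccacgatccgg
Gpx3, exon 2, codon 73 of 226, chr11:54907256-54907258, plus strand: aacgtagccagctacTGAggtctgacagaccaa
Gpx4, exon 3, codon 73 of 197, chr10:80054737-80054739, plus strand: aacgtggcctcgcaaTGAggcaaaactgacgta

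Gpx1 encodes the main cytosolic glutathione peroxidase, which clears hydrogen peroxide and is abundant in hepatocytes. Gpx1 (gene ID 14775; chromosome 9, 108339080 to 108340342, plus strand) was at 2183, 2130 and 2163 FPKM in sedentary and 2263, 2282 and 2291 FPKM in exercise libraries. The groups did not overlap by FPKM and overlapped after TMM scaling. By TMM-scaled counts it did not pass (log2 fold change 0.01, SE 0.02, edgeR adjusted p = 0.754), and the fold interval of 0.980 to 1.03 was the narrowest of the 10 genes. With library totals alone its log2 fold change was 0.09 (edgeR adjusted p = 1e-04).

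Gpx4 encodes the peroxidase that reduces lipid hydroperoxides within membranes and is known for restraining ferroptosis, a form of cell death by lipid peroxidation. Gpx4 (gene ID 625249; chromosome 10, 80047166 to 80056439, plus strand) was at 341, 332 and 334 FPKM in sedentary and 386, 380 and 376 FPKM in exercise libraries. All exercise libraries were above all sedentary ones, and the spread within groups was no more than counting noise (chi-square 1.74 over 4 degrees of freedom). Gpx4 rose 1.079-fold by TMM-scaled counts (log2 fold change 0.11, SE 0.03, edgeR adjusted p = 0.00118). Its log2 fold change was 0.10 to 0.12 with 1 library left out. A ratio of reads within a library needs no scaling. Gpx4 was 0.104 ± 0.000699 of Gpx1 in sedentary and 0.111 ± 0.00236 in exercise libraries (SD, n = 3), without overlap. The exact permutation p was 0.1, the smallest that 3 against 3 allows. Of all pairs of tested genes with reads in every library, 46.5% had ratios without overlap. The ratio rests on the same counts as the edgeR test, so it is not separate support.

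Gpx3 encodes the plasma glutathione peroxidase, which is made mainly by the kidney. Gpx3 (gene ID 14778; chromosome 11, 54902854 to 54910387, plus strand) was scarce in these livers, at 69, 55 and 51 reads in sedentary and 58, 63 and 77 in exercise libraries. The groups overlapped. Its log2 fold change of 0.12 (SE 0.16, edgeR adjusted p = 0.579) had an interval from a fold of 0.874 to 1.35, so that changes of the size seen for Sod1 and Gpx4 were not detectable at this depth.

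Prdx3 encodes the peroxiredoxin of the mitochondrial matrix, which is reduced there by thioredoxin 2. The gene (gene ID 11757) lies on chromosome 19, 60864066 to 60874538, minus strand, and its main transcript has 7 exons. Reads numbered 1920, 1740 and 1857 in sedentary and 1738, 1624 and 1731 in exercise libraries. Exercise replicate 1 was 2 reads below the lowest sedentary library, and by FPKM the groups overlapped (92.4, 84.3 and 89.9 in sedentary, 84.8, 79.9 and 84.2 in exercise libraries). By TMM-scaled counts Prdx3 fell 1.127-fold (log2 fold change −0.17, SE 0.04, edgeR adjusted p = 9.23e-05), and the log2 fold change was −0.21 to −0.14 with 1 library left out. It did not pass with limma on log2(FPKM + 1), where the log2 fold change was −0.10 (adjusted p = 0.145), or on log2(TPM + 1), where it was −0.06 (adjusted p = 0.302).

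Prdx5 and Prdx2 gave comparisons with Prdx3 that no scaling enters. Prdx5, a peroxiredoxin found in mitochondria, peroxisomes and cytosol, had 1.602 ± 0.0798 times the reads of Prdx3 in sedentary and 1.78 ± 0.0154 times in exercise libraries (SD, n = 3). Reads of Prdx3 were 1.115 ± 0.0173 times those of Prdx2 in sedentary and 0.968 ± 0.0243 times in exercise libraries (SD, n = 3), so that the order of the pair turned. Reads of Sod2, which acts in the same matrix, were 1.42 ± 0.0691 times those of Prdx3 in sedentary and 1.64 ± 0.0388 times in exercise libraries (SD, n = 3). All 3 ratios contain Prdx3, so they are not separate comparisons, and of the 9 pairs with Prdx3 7 had ratios without overlap. None of the 3 ratios overlapped between groups, each with an exact permutation p of 0.1, the smallest possible. Of 7 ratios tested none could therefore pass, before or after adjustment. Of the 45 pairs of members, 14 had ratios without overlap, a smaller share than the 46.5% of all pairs of tested genes with reads in every library.

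**Figure D3:**
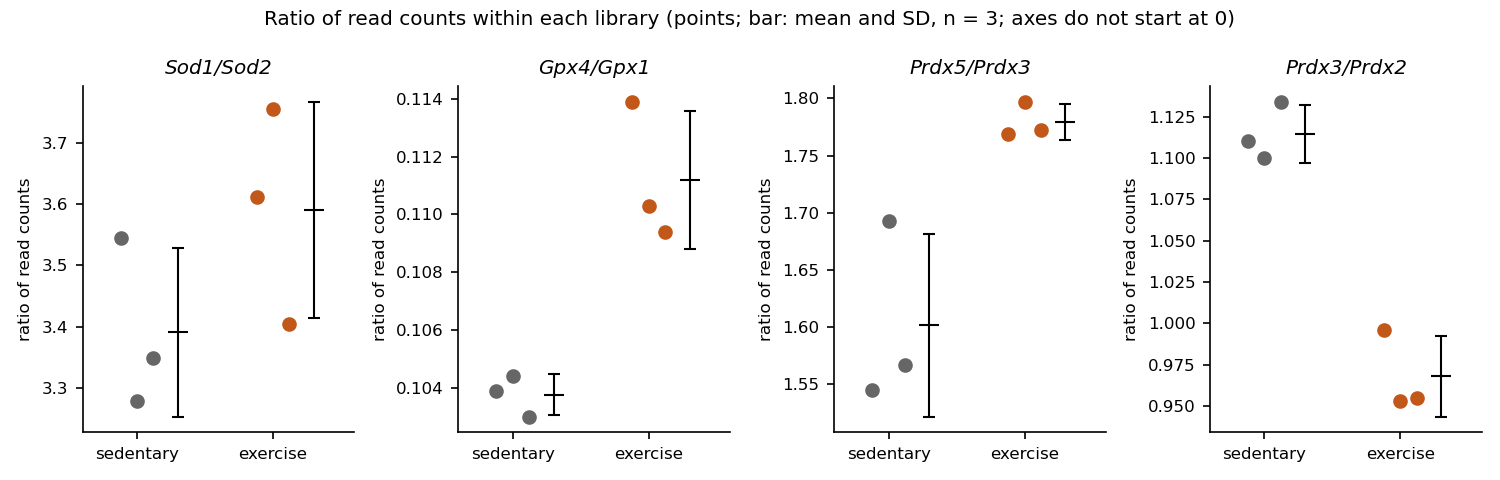
Ratios of read counts within each library for 4 pairs of genes, in the 3 sedentary and 3 exercise libraries, with the mean and SD beside the points. The ratios of Gpx4 to Gpx1, Prdx5 to Prdx3 and Prdx3 to Prdx2 separate the groups, and that of Sod1 to Sod2 does not.

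Prdx5 itself (gene ID 54683, chromosome 19, 6906697 to 6910106, minus strand) was at 169, 169 and 167 FPKM in sedentary and 177, 169 and 176 FPKM in exercise libraries. It did not pass (log2 fold change −0.02, SE 0.03, edgeR adjusted p = 0.639), and its sign turned with the scaling, to 0.06 with library totals alone. Its fold interval ran from 0.949 to 1.03. Prdx5 overlaps Trmt112, a gene on the opposite strand, by 409 bases, and Trmt112 rose (log2 fold change 0.17, edgeR adjusted p = 0.00605). No source used here says whether counting used strand, and without strand reads from the overlap cannot be told apart.

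Prdx2 encodes a cytosolic peroxiredoxin that is very abundant in red blood cells. Prdx2 (gene ID 21672; chromosome 8, 84969622 to 84974811, plus strand) was at 82.2, 75.8 and 78.3 FPKM in sedentary and 84.1, 82.7 and 86.9 FPKM in exercise libraries, and sedentary replicate 1 came within 1 FPKM of the lowest exercise library. Prdx2 did not pass (log2 fold change 0.03, SE 0.04, edgeR adjusted p = 0.506), with a fold interval of 0.974 to 1.07. Markers of red blood cells and their precursors summed to 478 to 494 TPM in sedentary and 431 to 453 TPM in exercise libraries. Of 6 tested markers 4 were lower and none higher, where 19.0% of all tested genes were lower and 19.1% higher. The part of red blood cells and their precursors in the Prdx2 level was not tested.

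Prdx6 encodes the peroxiredoxin that uses glutathione and also has phospholipase activity. Prdx6 (gene ID 11758; chromosome 1, 161240112 to 161251210, minus strand) was at 221, 216 and 219 FPKM in sedentary and 239, 235 and 231 FPKM in exercise libraries, without overlap. After TMM scaling its groups still did not overlap, but it did not pass (log2 fold change 0.03, SE 0.02, edgeR adjusted p = 0.324; fold interval 0.989 to 1.05). With library totals alone the log2 fold change was 0.11 (edgeR adjusted p = 0.000121).

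The gene whose pattern was compared with others was Sod1, which had the smallest adjusted p of the 10. Over the 6 libraries, log2 TMM-scaled counts of Wnk4 (Pearson r = 0.994), Akirin2 (0.992) and Tmem50b (0.991) were most like it. These values describe libraries in 2 separate groups, and 393 of 10265 other genes had an r above 0.9.

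Among other members of the same families and catalase, 1 of 6 tested genes was higher, none was lower and 5 did not pass. Over all tested genes 19.1% were higher and 19.0% lower. The higher gene was Cat, the peroxisomal enzyme that breaks down hydrogen peroxide, with FPKM of 1301 ± 5.21 (sedentary) and 1464 ± 12.1 (exercise; SD, n = 3), a rise of 1.068-fold by TMM-scaled counts (edgeR adjusted p = 1.85e-05). Prdx1, the most abundant peroxiredoxin of the table, was at 673 ± 11.6 and 697 ± 16.5 FPKM. It was not called (log2 fold change −0.02, adjusted p = 0.444). With library totals alone its sign turned and it passed as higher (0.06, adjusted p = 0.0264). Prdx4, which acts in the endoplasmic reticulum, was at 105 ± 4.99 and 104 ± 1.73 FPKM (log2 fold change −0.08, adjusted p = 0.104), and it passed as lower without sedentary replicate 1 (−0.12, adjusted p = 0.0236). Ccs, the chaperone that loads copper into Sod1, was at 193 ± 6.17 and 207 ± 3.85 FPKM. It was not called (log2 fold change 0.04, adjusted p = 0.368) but passed as higher with library totals alone (0.11, adjusted p = 0.00152).

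In the list of the thioredoxin system and peroxiredoxin repair, 2 of 10 genes were higher and 4 lower (median log2 fold change 0.01, against −0.000618 over all tested genes). Of all tested genes 19.1% were higher and 19.0% lower. Srxn1, the sulfiredoxin that repairs overoxidised peroxiredoxins, fell 1.324-fold (edgeR adjusted p = 1.46e-09). Txnip, which binds and inhibits thioredoxin, rose 1.236-fold (adjusted p = 1.83e-09), and Sesn2, a stress-induced sestrin, rose 1.514-fold from 1.80 to 2.87 FPKM (adjusted p = 0.000173). Txn2, the thioredoxin of the mitochondrial matrix, is named here after its values were seen, as the donor of electrons to Prdx3. Its mean FPKM was 119.5 ± 2.37 without training and 115.2 ± 3.24 after it (SD, n = 3). By TMM-scaled counts Txn2 was lower in exercise (log2 fold change −0.12, edgeR adjusted p = 0.00152). Txnrd2 of the same list, also picked after its values were seen, did not pass (log2 fold change 0.01, edgeR adjusted p = 0.892). Txn2 was not followed through the other scalings, and library totals alone moved the median of all tested genes up by 0.08. Whether Txn2 and Prdx3 changed together was not tested.

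**Figure D4:**
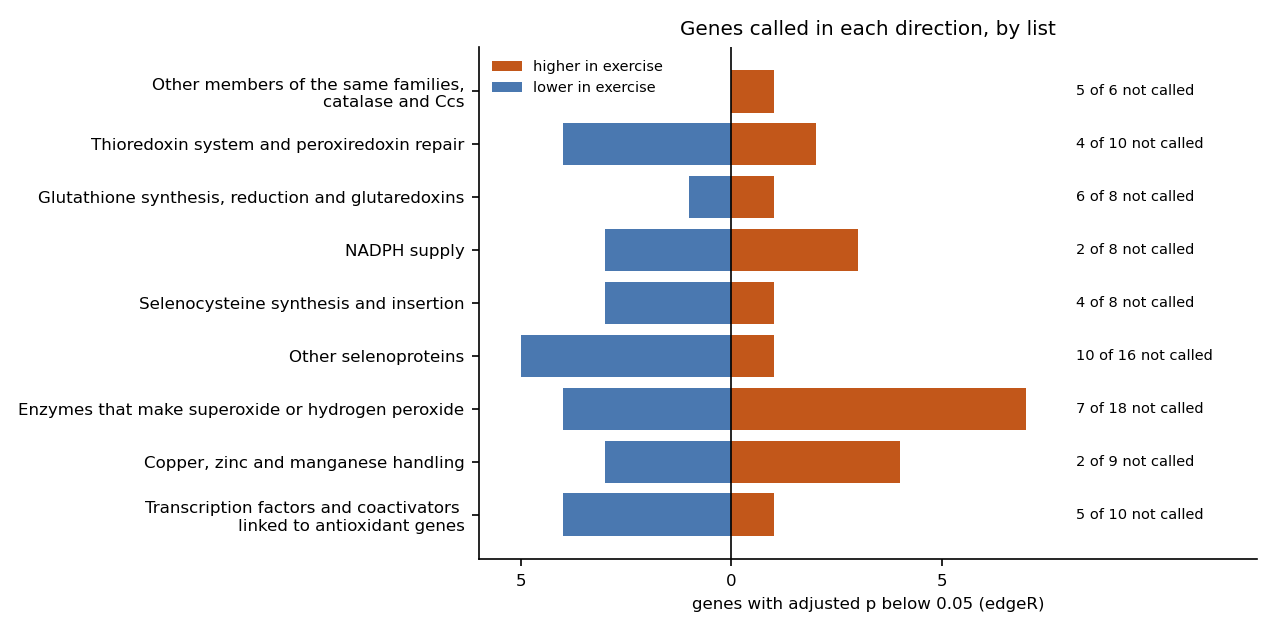
Genes with an adjusted p below 0.05 (edgeR) in 9 lists around the peroxidases, as counts higher (right) and lower (left) in exercise. The lists differ in size, and most hold genes called in both directions, such as 7 higher and 4 lower of 18 enzymes that make superoxide or hydrogen peroxide. Over all tested genes 19.1% were higher and 19.0% lower.

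Of 8 glutathione genes tested, 1 was higher, 1 lower and 6 were not called, with a median of 0.01 (38.1% of all tested genes were called). The called genes encode the subunits of the enzyme that limits glutathione synthesis. Gclm, the modifier subunit, rose 1.170-fold (edgeR adjusted p = 1.43e-07). Gclc, the catalytic subunit, fell 1.070-fold (adjusted p = 0.00108), but with limma on log2(TPM + 1) its log2 fold change was 0.02 and did not pass. Gclc also did not pass with library totals alone (−0.0195, edgeR adjusted p = 0.535) or in the other limma fits. Glrx, a glutaredoxin, did not pass (log2 fold change 0.11, adjusted p = 0.103), though it did without sedentary replicate 2 (0.15, adjusted p = 0.0421) and with library totals alone (0.19, adjusted p = 0.00368). In the NADPH list, 3 of 8 genes were higher and 3 lower. Me1, the malic enzyme, rose 1.569-fold (adjusted p = 1.92e-23), and Pgd of the pentose phosphate pathway fell 1.191-fold (adjusted p = 6.16e-06). Aldh1l1 of folate metabolism fell 1.131-fold (adjusted p = 6.22e-11) but did not pass with limma on log2(TPM + 1) (−0.07, adjusted p = 0.134) or log2(FPKM + 0.1).

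Selenium genes were tested because Gpx1, Gpx3 and Gpx4 depend on them. Of 8 genes of selenocysteine synthesis and insertion, 1 was higher and 3 were lower, with a median log2 fold change of −0.05. Over all tested genes 19.1% were higher and 19.0% lower. Sepsecs, which makes selenocysteine on its tRNA, fell 1.182-fold (edgeR adjusted p = 4.91e-06), and Scly, which recycles selenium, fell 1.138-fold (adjusted p = 3.65e-05). Scly did not pass with limma on log2(TPM + 1) (−0.08, adjusted p = 0.128) or in the other limma fits. Sephs2, which makes selenophosphate, fell 1.061-fold (adjusted p = 0.00123), and its log2 fold change was 0.02 with limma on log2(TPM + 1). With library totals alone Sephs2 did not pass (−0.00809, edgeR adjusted p = 0.785). Among 16 other selenoproteins 1 was higher, 5 were lower and 10 did not pass (median 0.01). This list shares Sephs2 with the selenium list and Txnrd1, Txnrd2 and Txnrd3 with the thioredoxin list. Sephs2 and Txnrd3 are among its 5 lower genes. Dio1, the thyroid hormone deiodinase, fell 1.504-fold (adjusted p = 2.12e-17), and Selenos, of the endoplasmic reticulum membrane, rose 1.166-fold (adjusted p = 0.000145). Selenop, the plasma carrier of selenium, went from 2577 ± 21.4 to 2500 ± 7.74 FPKM (SD, n = 3) and fell 1.085-fold (adjusted p = 1.45e-07), but limma on log2(TPM + 1) gave −0.00892 (adjusted p = 0.842).

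Over all 9 lists, each gene counted once, 21 of 89 tested genes were higher, 25 lower and 43 did not pass (edgeR), with a median log2 fold change of 0.00101, where 19.1% of all tested genes were higher and 19.0% lower. With library totals alone, 37 were higher and 17 lower, where 34.5% of all tested genes were higher and 11.7% lower.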

How the data were processed

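RNA from 6 mouse liver libraries (3 exercise, 3 sedentary) was sequenced from both ends by DNBseq, as the labels' protocols state. MultiQC, featureCounts and cutadapt, and the build GRCm38.p6, are named in the submitters' processing notes. No source used here gives versions, the aligner, the annotation or the strand setting. Each gene of the deposited table has a read count, an FPKM and a TPM per library, per the file headers. The deposited read counts are estimated counts, not whole for 1165 of 16123 genes, but whole in every library for all 10 members. The 6 columns of averages were not used.

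Counts were rounded and tested with edgeR 4.0.16 in R 4.3.3 (TMM, quasi-likelihood F test, no covariates, Benjamini-Hochberg adjustment) over the 10266 genes whose FPKM averaged 1 or more. Standard errors are the log2 fold change over the square root of F, and intervals are at 95%. Alternatives used DESeq2 1.42.0, limma 3.58.1 with pseudocounts of 1 and 0.1, other scalings and filters, a 1.2-fold threshold, a replicate block and each library left out. A summed library per group was added after the data were seen. The members and lists were chosen with earlier results of these data known. Named genes were the 10 members, up to 3 genes with the smallest p in each list, Prdx1, Prdx4, Cat and Ccs, and the 3 genes most correlated with the member of smallest adjusted p. Of the list genes, Gpx5, Prdx6b, G6pd2 and Dao were not found by symbol among the listed genes. Gpx2, Gpx8, Slc7a11, Lrp8, Selenon and Hao2 were listed but averaged below 1 FPKM and were not tested. Markers of neutrophils (13.0 to 21.3 and 11.0 to 15.4 TPM, sedentary and exercise) and bile duct cells (78.9 to 82.0 and 42.0 to 44.5 TPM) were summed as well. Processed pseudogenes of Gpx4, Prdx2 and Prdx6 are annotated, and no source used here says how shared reads were assigned. Tests were checked on simulated data.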

Additional observations from a re-analysis of the deposited data

How the results depend on the processing

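The pair of members called higher and the one called lower were the same in number with the median of ratios, both filters, DESeq2 and the replicate block. With 1 library left out, 2 to 3 members were called higher and 1 lower. Members called higher numbered 7 with library totals alone, 4 with totals without the 20 most abundant genes and 6 with limma on log2(TPM + 1). Members called lower numbered 0 in the limma fits on log2(FPKM + 1), log2(FPKM + 0.1) and log2(TPM + 1). None of the 10 (0 higher, 0 lower) passed against a 1.2-fold change. The setting with 1 summed library per group, added after seeing the data, assumes a biological variation of 0.1 by hand, at which changes of the members' size are too small to pass. Its 0 called members say nothing of stability. The replicate numbers did not pair the libraries (correlations of deviations −0.0348, −0.0136 and −0.00658), and the replicate block gave 3846 called genes against 3913.

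Over all genes the counts called, higher and lower, were 2512, 1272 and 1240 with DESeq2, 653, 239 and 414 against a 1.2-fold change, and 179, 50 and 129 with summed libraries. They were 3537 higher and 1203 lower with library totals, 2583 and 1575 with totals without the 20 most abundant genes, 3542 and 881 with limma on log2(TPM + 1), 2702 and 1081 on log2(FPKM + 1) and 2596 and 1028 on log2(FPKM + 0.1). Genes of the lists called higher and lower were 37 and 17 with library totals, 37 and 11 with limma on log2(TPM + 1), 27 and 13 on log2(FPKM + 1), 26 and 11 on log2(FPKM + 0.1), 4 and 4 against a 1.2-fold change and 0 and 2 with summed libraries. Groups did not overlap for 4 members on TMM-scaled counts.

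The sign turned for Prdx5 with library totals (0.0591), totals without the 20 most abundant genes (0.0161), and limma on log2(FPKM + 1) (0.0521), log2(FPKM + 0.1) (0.0524) and log2(TPM + 1) (0.0866). In the same order Prdx1 gave 0.0559, 0.0129, 0.0501, 0.0502 and 0.0847. Prdx4 gave 0.000242 with library totals and 0.0264 on log2(TPM + 1), where Gclc gave 0.0177 and Sephs2 0.0228. With 1 library left out, Gpx1 ranged from −0.000532 to 0.0192, Gpx3 from −0.00424 to 0.257 and Prdx5 from −0.0303 to 0.00183. With FPKM in place of TPM, log2 ratios of sums were 0.0924 for glutathione peroxidases, 0.0566 for peroxiredoxins, 0.117 for all members, 0.118 for the cytosol, 0.0174 for mitochondria and 0.180 for Gpx4. In the settings where Prdx5 turned, the median log2 fold change of all tested genes was 0.034 to 0.096. Measured from that median, Prdx5 lay at −0.0181 to −0.00901 under 5 scalings, Prdx3 at −0.171 to −0.16 and Sod1 at 0.115 to 0.118. The cause of the shifts with 1 library left out was not tested.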

Other observations

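Enzymes that make superoxide or hydrogen peroxide had 7 of 18 tested members higher and 4 lower in exercise livers, with a median log2 fold change of 0.02. Over all tested genes 19.1% were higher and 19.0% lower. Uox, the peroxisomal urate oxidase, had FPKM of 970.5 ± 8.78 (sedentary) and 1181 ± 8.35 (exercise; SD, n = 3), a rise of 1.156-fold (edgeR adjusted p = 4.27e-13). Ero1lb, an oxidase of the endoplasmic reticulum, rose 1.587-fold (adjusted p = 7.07e-22), and Nox4, an NADPH oxidase, rose 1.256-fold (adjusted p = 3.76e-08). The 4 lower genes, named after their values were seen, were Paox, Xdh, Cyba and Cybb. Cyba and Cybb form the oxidase of phagocytes (log2 fold changes −0.35 and −0.31), and 6 of 8 Kupffer cell markers were lower in the same libraries, whose part in these values was not tested.

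Genes that handle copper, zinc and manganese, the metals of Sod1 and Sod2, had 4 of 9 members higher and 3 lower. Beside this list and the next, 19.1% of all tested genes were higher and 19.0% lower. The metallothioneins Mt1 and Mt2 fell 4.760-fold and 11.78-fold (edgeR adjusted p = 1.89e-35 and 5.24e-36), and Slc30a10, a manganese exporter, rose 1.346-fold (adjusted p = 3.76e-13). Of 10 regulators linked to antioxidant genes 1 was higher and 4 lower. Nfe2l2, which encodes NRF2, rose 1.269-fold (adjusted p = 3.76e-10), while Bach1, a repressor of antioxidant genes, fell 1.188-fold (adjusted p = 4.93e-05) and Foxo1 fell 1.232-fold (adjusted p = 4.27e-05). Foxo1 did not pass with limma on log2(TPM + 1) (−0.16, adjusted p = 0.0759) or log2(FPKM + 0.1).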
